A study of Mus musculus with 12 samples.

Results

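A set of 9 genes from the negative limb and the output of the circadian clock was followed in mouse liver: Per1, Per2, Per3, Cry1, Cry2, Gm129, Bhlhe40, Bhlhe41 and Usp2. They were taken by symbol and make up 9 of the 22322 gene symbols and 26 of the 46585 transcript rows deposited for each liver. The mice were labelled as C57BL/6 and 8 weeks old, and the study's methods give a C57BL/6J background. WT mice carried a floxed Bmal1 gene in both copies, and KO mice came from the same floxed line crossed to mice that express CRE recombinase from a liver-specific promoter, which is not named. CRE is not stated for the WT mice, so an effect of CRE cannot be told apart from loss of Bmal1. After 1 week in 12 h of light and 12 h of dark and then 2 days in darkness, livers were taken at CT0, the time at which the lights used to come on, or 12 h later at CT12. The 12 samples form 4 groups of 3 livers, WT and KO at CT0 and at CT12. The sample titles and the study's methods give 3 mice per group, while a protocol note in the labels gives 2.

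BMAL1 (encoded by Arntl) and CLOCK form a dimer that binds E-box motifs and activates transcription. PER and CRY proteins, which are among its targets, assemble into a complex that enters the nucleus and represses the dimer. GM129 (also called CIART or CHRONO) binds BMAL1 and represses it, and BHLHE40 and BHLHE41 (DEC1 and DEC2) are basic helix-loop-helix repressors that bind E-boxes themselves. USP2 is a deubiquitinase whose gene is a strongly rhythmic output of the liver clock.

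Promoter sequences show how differently these genes are equipped with E-boxes near the start site. RefSeq windows on GRCm38.p6, from 250 bases before to 50 bases after a transcription start, were matched for 7 of the 9 members, all except Per2 and Bhlhe40, with Gm129 listed as Ciart and Per1 having a window at each of 2 starts. Both strands were searched for the E-box CACGTG, the related E′-box (CACGTT or AACGTG) and the D-box (TTATGTAA or TTATGCAA, or their complements TTACATAA and TTGCATAA). No letters are shared between matches. The E-box was found in 7.15% of all 32851 windows, the E′-box in 4.68% and the D-box in 1.66%. The stretches below run 5′ to 3′ on the gene's strand with matches in capitals. They are shown because they hold every match found in the members, from Gm129 with 3 E-boxes to Per3 with D-boxes alone.
Gm129 (chr3:95882247-95882364, minus strand): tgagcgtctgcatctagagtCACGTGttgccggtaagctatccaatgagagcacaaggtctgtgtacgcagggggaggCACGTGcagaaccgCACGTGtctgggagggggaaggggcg
Cry1 (chr10:85185089-85185153, minus strand): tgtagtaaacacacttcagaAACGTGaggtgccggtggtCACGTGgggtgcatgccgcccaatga
Per1, first start (chr11:69098763-69098948, plus strand): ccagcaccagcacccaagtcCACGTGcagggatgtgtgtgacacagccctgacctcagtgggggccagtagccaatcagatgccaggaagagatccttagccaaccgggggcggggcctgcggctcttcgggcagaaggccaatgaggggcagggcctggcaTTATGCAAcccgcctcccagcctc
Bhlhe41 (chr6:145865548-145865593, minus strand): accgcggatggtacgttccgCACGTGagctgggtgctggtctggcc
Cry2 (chr2:92434210-92434255, minus strand): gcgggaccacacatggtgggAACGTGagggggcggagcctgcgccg
Per3 (chr4:151044796-151044890, minus strand): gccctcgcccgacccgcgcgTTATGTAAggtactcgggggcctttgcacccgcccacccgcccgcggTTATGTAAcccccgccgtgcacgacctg

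The E-boxes of Gm129 began 116, 58 and 44 bases before the start. Cry1 had an E′-box 79 bases and an E-box 60 bases before it, Per1 an E-box 166 bases and a D-box 24 bases before its first start, Bhlhe41 an E-box at 153 bases and Cry2 an E′-box at 166 bases. Per3 had 2 D-boxes, 205 and 158 bases before the start. The windows of Usp2 and of the second Per1 start held none of these letters, which says nothing of sites farther away. Windows were matched by gene symbol and not to the transcript rows measured below. The Per1 windows begin at chr11:69098699 and chr11:69099902 on GRCm38.p6. On mm9 the Per1 row of 4671 bases begins at chr11:68912450 and the main Per1 row at chr11:68913654, with nearly the same spacing. By this spacing the main row begins at the second start, whose window had no match. The E-box and D-box printed for Per1 then lie before the start of the row of 4671 bases.

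**Figure D1:**
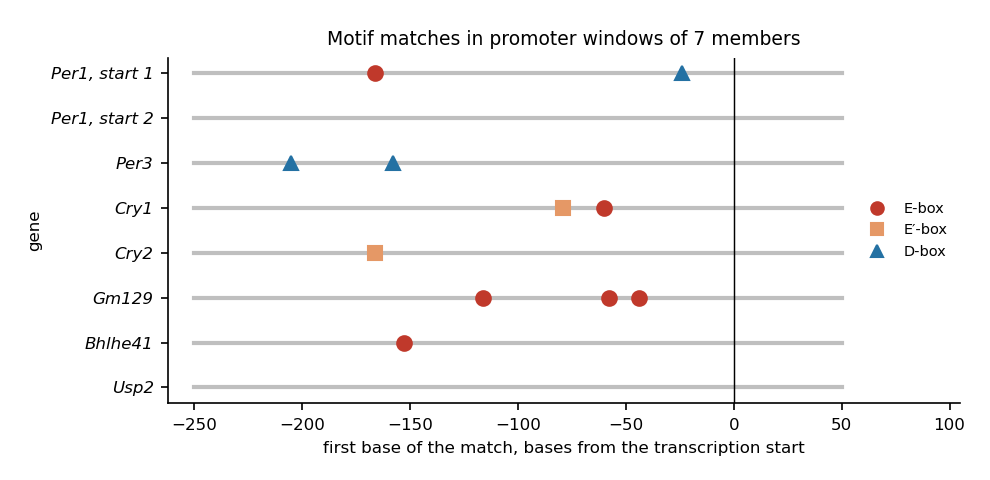
Positions of motif matches (horizontal axis, bases from the transcription start at 0) in the 8 windows of 7 members (vertical axis). Circles are E-boxes, squares E′-boxes and triangles D-boxes. Gm129 held 3 E-boxes, while the windows of Usp2 and the second Per1 start had no match.

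The values are RPKM, reads scaled to transcript length and to sequencing depth, as deposited, and the depth recovered from them was 11460000 to 19020000 reads per liver. Where a gene had several transcript rows, the row with the highest mean was taken as its main row. Differences are given on the scale log2(RPKM + 1), which understates changes of low values, with the standard error (SE) and the Benjamini-Hochberg adjusted p of a limma fit over all 10799 genes that reached a mean of 1 RPKM in at least 1 group. A difference with an adjusted p under 0.05 is named a rise or a fall. All 9 members entered the fit. Bhlhe40, Per2, Cry1 and Cry2 had a mean of at least 1 RPKM in all 4 groups, and Per1 and Per3 in 3, not in WT at CT0. Gm129, Bhlhe41 and Usp2 reached it in 2 groups. These were WT and KO at CT12 for Gm129 and Usp2, and WT at CT12 and KO at CT0 for Bhlhe41. Arntl measured 15.7 to 16.4 RPKM in WT and 5.73 to 7.45 in KO at CT0, and 0.68 to 1.26 in WT and 3.59 to 4.37 in KO at CT12. Its row spans 20 exons, of which the floxed design removes a single one, so this level does not measure the deletion. The 6 hepatocyte markers were all present, and their summed level was 36949 to 49409 RPKM in WT and 24768 to 33546 in KO, with 1 of 6 called between genotypes at each time. The summed level of 3 pancreas markers, of which 1 was at 0 in all samples, was 3.65 to 11 RPKM in WT and 13.9 to 21.6 in KO. Between CT0 and CT12 in WT, summed markers went from 121 to 163 RPKM down to 77.5 to 117 for 6 Kupffer cell genes, from 78.8 to 97.4 down to 52.7 to 62.8 for 5 sinusoidal endothelium genes, and from 129 to 167 down to 97.2 to 110 for 5 stellate cell genes, with 1, 0 and 1 genes called. Summed markers of cholangiocytes went from 2.63 to 3.64 RPKM down to 0.708 to 2.28, with 1 gene called, of lymphocytes from 5.45 to 6.51 down to 3.57 to 4.99, with 0 called, and of pancreas from 6.71 to 11 down to 3.65 to 6.61, with 1 called. The called pancreas marker was also called between genotypes at CT12. The part of these marker levels in the results below was not tested, and in whole liver fewer cells of a type cannot be told apart from less RNA per cell.

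In WT liver, 6 of the 9 members rose from CT0 to CT12 (Gm129, Usp2, Per3, Per1, Per2 and Bhlhe40) and none fell, where 3.71% of all tested genes rose and 7.88% fell. In KO liver, Usp2 and Per1 rose between these times and none fell, 2 of 9 where 1.10% of all tested genes rose and 1.32% fell. Gm129 and Usp2 passed the filter only through the CT12 groups, where they are high. The members were also chosen with earlier results of these data known, so such counts describe them and are no test of the set. The change with time was smaller in KO for 5 members, Gm129, Per3, Per2, Usp2 and Bhlhe40, by the interaction of genotype and time (the change in KO minus the change in WT), which was negative for 0.417% and positive for 1.07% of all genes. At CT0, 4 members (Cry1, Per2, Bhlhe40 and Cry2) were higher in KO and none lower, where 1.02% of all genes were higher and 0.843% lower. At CT12, Cry1 was higher in KO and Gm129, Per3, Usp2 and Per2 were lower, against 6.97% of all genes higher and 3.49% lower. The 4 calls at CT0 became 1 without WT CT0 replicate 2 and 2 without WT CT0 replicate 1 or KO CT0 replicate 1, and the 5 interactions became 3 in 8 of the 12 fits that left out 1 liver. The median difference of the members between KO and WT was 0.67 at CT0 and -0.75 at CT12, and that of all tested genes 0.01 and 0.08. The median change with time was 2.29 in WT and 0.36 in KO over the members, and -0.07 and -0.00 over all tested genes.

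**Figure D2:**
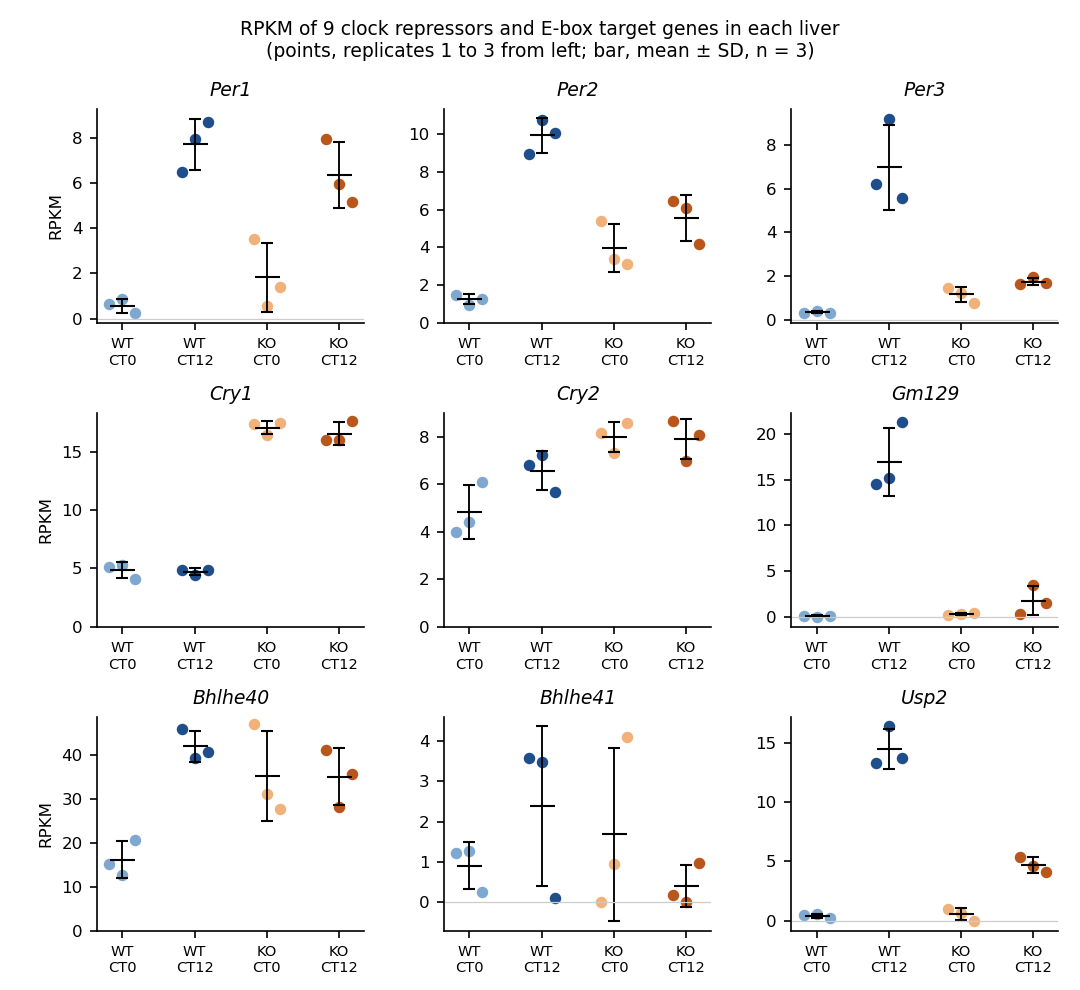
RPKM (vertical axis) of the main row of each of the 9 members in every liver, by group (horizontal axis). Points are replicates 1 to 3 from left, and bars give the mean ± SD of 3 livers. Cry1 lay between 4.06 and 5.32 RPKM in all 6 WT livers and between 15.99 and 17.68 in all 6 KO livers, and the 3 WT livers at CT12 were far above the other groups for Gm129, Per3 and Usp2.

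Among the Period genes, Per2 in KO liver lay between its WT levels of the 2 times. Per2 (chr1:93312561-93355905 on mm9, minus strand) measured 1.5, 0.964 and 1.28 RPKM in WT at CT0 and 8.95, 10.8 and 10.1 in WT at CT12. In KO it measured 5.39, 3.38 and 3.11 RPKM at CT0 and 6.43, 6.08 and 4.17 at CT12. All KO livers thus lay between the WT livers of CT0 and those of CT12, and only the KO groups of the 2 times overlapped. Per2 rose from CT0 to CT12 in WT by 2.29 (SE 0.18, adjusted p = 1.2e-05) and differed in KO by 0.41 (SE 0.18, adjusted p = 0.23). It was higher in KO than in WT at CT0 by 1.12 (SE 0.18, adjusted p = 0.0092) and lower at CT12, with a difference of -0.75 (SE 0.18, adjusted p = 0.021). The interaction was -1.87 (SE 0.26, adjusted p = 0.0037). The call at CT0 ended without WT CT0 replicate 2 (adjusted p = 0.051) and in an unmoderated model (0.06). The call at CT12 ended without WT CT12 replicate 2 or 3 or KO CT12 replicate 3 (adjusted p from 0.067 to 0.08) and in an unmoderated model (0.062).

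Per3 (chr4:150377761-150418774 on mm9, minus strand), whose product is a PER protein that mice can lose with little effect on rhythm, stayed under 2 RPKM in all KO livers. It measured 0.309, 0.386 and 0.326 RPKM in WT at CT0 and 6.21, 9.22 and 5.57 in WT at CT12. The KO livers held 1.45, 1.23 and 0.785 RPKM at CT0 and 1.63, 1.94 and 1.67 at CT12. The 4 groups did not overlap, and the mean at CT12 was 20.6 times that at CT0 in WT and 1.51 times in KO. The rise in WT was 2.55 (SE 0.17, adjusted p = 3.2e-06), against 0.36 in KO (SE 0.17, adjusted p = 0.25), and the interaction was -2.19 (SE 0.23, adjusted p = 0.00073). At CT12 Per3 was lower in KO, with a difference of -1.52 (SE 0.17, adjusted p = 0.00011). At CT0 it was 0.67 higher in KO without passing the test (adjusted p = 0.066), although each KO liver was above each WT liver. Adding 0.1 in place of 1 made the difference 1.48 and a call (adjusted p = 0.012), and calls were also obtained after quantile normalization (0.039), with the longest row of each gene (0.045) and without WT CT12 replicate 2 (0.031).

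For Per1 the change with time passed the test in both genotypes. Per1 has 5 transcript rows, and the main one (chr11:68913654-68914550 on mm9, plus strand) covers 496 bases in 3 exons. On it Per1 measured 0.64, 0.848 and 0.239 RPKM in WT at CT0 and 6.50, 7.96 and 8.72 in WT at CT12. The KO values were 3.52, 0.566 and 1.41 RPKM at CT0 and 7.97, 5.94 and 5.16 at CT12. The times did not overlap in either genotype, and the genotypes overlapped at both times. Per1 rose by 2.48 in WT (SE 0.31, adjusted p = 0.00038) and by 1.5 in KO (SE 0.31, adjusted p = 0.031), and the interaction of -0.98 (95% confidence interval -1.93 to -0.03, adjusted p = 0.38) did not pass. KO CT0 replicate 1 stood above the other livers of its group, and without it the adjusted p of the rise in KO was 0.0029. Without KO CT0 replicate 2 or 3, or KO CT12 replicate 1 or 2, the rise in KO no longer passed.

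The longer Per1 rows rest on more reads. On the row of 4671 bases, 31, 46 and 34 reads were recovered in WT at CT0 and 345, 434 and 371 in WT at CT12. In KO there were 166, 43 and 33 reads at CT0 and 401, 269 and 304 at CT12. On each of the 4 longer rows every KO liver at CT0 was above every WT liver, unlike on the main row, by 0.54 to 0.60 on the log2 scale (adjusted p from 0.24 to 0.33). The high value of KO CT0 replicate 1 was thus present on the longest row too. Over the 5 rows the rise in KO lay between 1.5 and 1.54 (adjusted p from 0.0067 to 0.028), but rows of a gene share reads and are not independent. KO CT0 replicate 1 was also the highest of its group for Per2, Per3, Bhlhe40 and Usp2, 5 of the 9 members in all. WT CT0 replicate 2 and KO CT12 replicate 1 were each the highest of their group for 5 members as well.

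The Cryptochrome genes encode the main repressors of the PER and CRY complex, and both were higher in KO than in WT at CT0. Cry1 (chr10:84594447-84647799 on mm9, minus strand) measured 5.16, 5.32 and 4.06 RPKM in WT at CT0 and 4.89, 4.41 and 4.90 in WT at CT12. In KO it measured 17.36, 16.45 and 17.45 RPKM at CT0 and 15.99, 16.04 and 17.68 at CT12. Genotypes stood far apart and times overlapped. Cry1 was higher in KO by 1.64 at CT0 (SE 0.10, adjusted p = 5.1e-06) and by 1.62 at CT12 (SE 0.10, adjusted p = 2.1e-06), 3.52 and 3.50 times in RPKM. The change with time was -0.02 in WT (95% confidence interval -0.24 to 0.19) and -0.04 in KO (-0.26 to 0.17). The 2 times are 12 h apart, so a rhythm with the same level at both would not be seen.

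Cry2 (chr2:92251417-92274193 on mm9, minus strand) varied less between groups than Cry1. It measured 3.97, 4.43 and 6.11 RPKM in WT at CT0 and 6.80, 7.25 and 5.66 in WT at CT12. KO livers measured 8.14, 7.32 and 8.56 RPKM at CT0 and 8.67, 6.99 and 8.06 at CT12. At CT0 the genotypes did not overlap, and at CT12 the ranges met between 6.99 and 7.25. Cry2 was higher in KO at CT0 by 0.64 (SE 0.14, adjusted p = 0.042), a call close to the threshold that ended in 7 of the 12 fits that left out 1 liver, among them those without KO CT0 replicate 1, 2 or 3. The difference at CT12 was 0.24 (95% confidence interval -0.07 to 0.54, adjusted p = 0.33). The row of 3976 bases gave 0.66 at CT0 and 0.20 at CT12.

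On the main rows, Gm129 showed the largest change with time in WT among the members on the log2 scale. On the longest rows of known length the changes were alike on this scale, at 2.93 (SE 0.145) for Usp2 and 2.89 (SE 0.189) for Gm129. In RPKM the mean of these rows at CT12 was 34.5 times that at CT0 for Usp2 and 65.2 times for Gm129. Gm129 has 6 transcript rows of 372 to 1939 bases. The main one is the shortest (chr3:95684375-95686126 on mm9, minus strand), and it is annotated as a processed transcript, not as protein coding. It measured 0.142, 0 and 0.159 RPKM in WT at CT0 and 14.5, 15.2 and 21.2 in WT at CT12. The KO livers gave 0.18, 0.378 and 0.469 RPKM at CT0 and 0.373, 3.45 and 1.57 at CT12. The low values are a handful of reads: the row of 1939 bases held 8, 2 and 2 reads in WT at CT0, 206, 194 and 217 in WT at CT12, 1, 2 and 4 in KO at CT0 and 6, 32 and 20 in KO at CT12. On that longer row the mean at CT12 was 65.2 times that at CT0 in WT and 7.72 times in KO. Without WT CT0 replicate 1 the former was 126, and without KO CT0 replicate 3 or KO CT12 replicate 2 the latter was 13.8 or 5.07, as computed after the values were seen.

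At CT12 Gm129 was lower in KO, with a difference of -2.82 (SE 0.32, adjusted p = 0.00014), and its mean was 0.106 of the WT mean. The rise with time in WT was 4.01 (SE 0.32, adjusted p = 1.2e-05). In KO the difference was 0.91 (SE 0.32, 95% confidence interval 0.21 to 1.60, adjusted p = 0.15), and without KO CT12 replicate 1, the liver with 6 reads, it passed the test (adjusted p = 0.032). One of the 6 rows, of 646 bases, also passed in KO, with 1.03 (adjusted p = 0.032). The interaction was -3.11 (SE 0.45, adjusted p = 0.0053), and over the 6 rows it lay between -3.11 and -2.27 with all 6 called. At CT0 the genotypes differed by 0.28 on the main row (adjusted p = 0.76), and on the longest row by -0.02.

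Bhlhe40 had the highest RPKM of the members in every group, and it was higher in KO than in WT at CT0. On its main row of 476 bases (chr6:108610868-108612693 on mm9, plus strand) it measured 15.1, 12.6 and 20.8 RPKM in WT at CT0 and 46.1, 39.3 and 40.7 in WT at CT12. In KO it measured 47.1, 31.3 and 27.7 RPKM at CT0 and 41.2, 28.2 and 35.8 at CT12. The WT livers of CT0 lay below all others, and the other 3 groups overlapped. Bhlhe40 rose with time in WT by 1.35 (SE 0.21, adjusted p = 0.0018), and the difference in KO was 0.01 (95% confidence interval -0.45 to 0.47). It was higher in KO at CT0 by 1.07 (SE 0.21, adjusted p = 0.026), a call that ended without WT CT0 replicate 1 or 2 or KO CT0 replicate 1. That call also ended with no filter (adjusted p = 0.063), in an unmoderated model (0.11) and in a fit of the 6 samples compared (0.094). The interaction of -1.34 (SE 0.30, adjusted p = 0.049) lay at the threshold and ended in 10 of the 12 fits that left out 1 liver, all except those without WT CT0 replicate 3 or KO CT0 replicate 3.

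Bhlhe41, the close relative of Bhlhe40, could not be ordered over the groups. On its main row of 744 bases (chr6:145812025-145813822 on mm9, minus strand) it measured 1.21, 1.27 and 0.239 RPKM in WT at CT0 and 3.58, 3.48 and 0.10 in WT at CT12. In KO it measured 0, 0.944 and 4.10 RPKM at CT0 and 0.186, 0 and 0.984 at CT12. Every group overlapped every other. The recovered reads were 17, 18 and 3 in WT at CT0, 43, 38 and 1 in WT at CT12, 0, 10 and 35 in KO at CT0 and 2, 0 and 10 in KO at CT12, so the spread inside a group was far wider than counting error gives. The change with time was 0.62 in WT (95% confidence interval -0.72 to 1.96) and -0.69 in KO (-2.03 to 0.65), and none of its 5 differences passed the test. A row of 6133 bases stayed below the limit of 1 RPKM and showed the same scatter, with 66, 51 and 14 reads in WT at CT12 and 2, 11 and 36 in KO at CT0.

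Usp2 rose with time in both genotypes, by less in KO. Its main row has no position in the annotation used (GENCODE vM1 on mm9), whereas 3 of its 6 rows lie at chr9:43875104-43903708 on the plus strand or inside that interval. Usp2 measured 0.463, 0.566 and 0.239 RPKM in WT at CT0 and 13.3, 16.4 and 13.7 in WT at CT12. In KO it measured 0.993, 0.662 and 0 RPKM at CT0 and 5.41, 4.57 and 4.09 at CT12. At CT0 the genotypes overlapped, and at CT12 the KO livers formed a separate, lower group. The rise was 3.44 in WT (SE 0.21, adjusted p = 2.2e-06) and 1.93 in KO (SE 0.21, adjusted p = 0.0015). At CT12 Usp2 was lower in KO, with a difference of -1.44 (SE 0.21, adjusted p = 0.001), and its mean was 0.325 of the WT mean.

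The interaction of Usp2 was -1.52 (SE 0.30, adjusted p = 0.029), and it depended on how low values were weighed. With 0.1 in place of 1 added before the logarithm, the adjusted p was 0.60. On the main row KO CT0 replicate 3 was at 0, while the other Usp2 rows that passed the filter held 0.0368 to 0.128 RPKM in that liver. The call of the interaction also ended in 9 of the 12 fits that left out 1 liver, all except those without KO CT0 replicate 1 or 3 or KO CT12 replicate 1. With 0.1 added, the difference at CT12 did not pass either (adjusted p = 0.16). Over the 5 Usp2 rows that passed the filter, which share reads, the interaction lay between -1.65 and -1.44 with all 5 called.

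**Figure D3:**
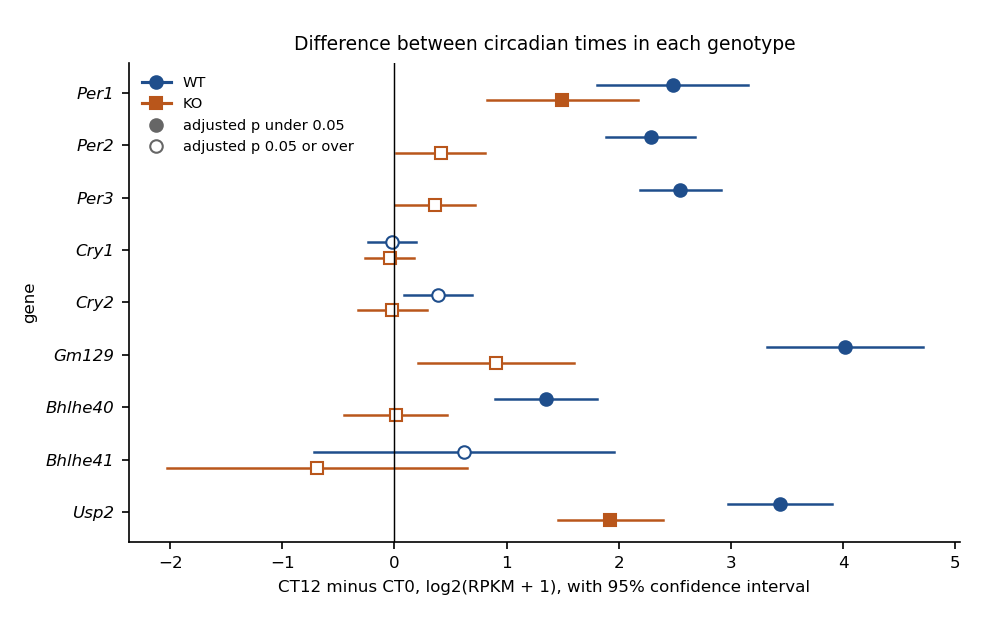
Difference between CT12 and CT0 (horizontal axis, log2(RPKM + 1), with 95% confidence interval) for each member (vertical axis), circles for WT and squares for KO. Filled symbols have an adjusted p under 0.05. In WT 6 members are filled, from Bhlhe40 at 1.35 to Gm129 at 4.01, and in KO only Per1 at 1.5 and Usp2 at 1.93.

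**Figure D4:**
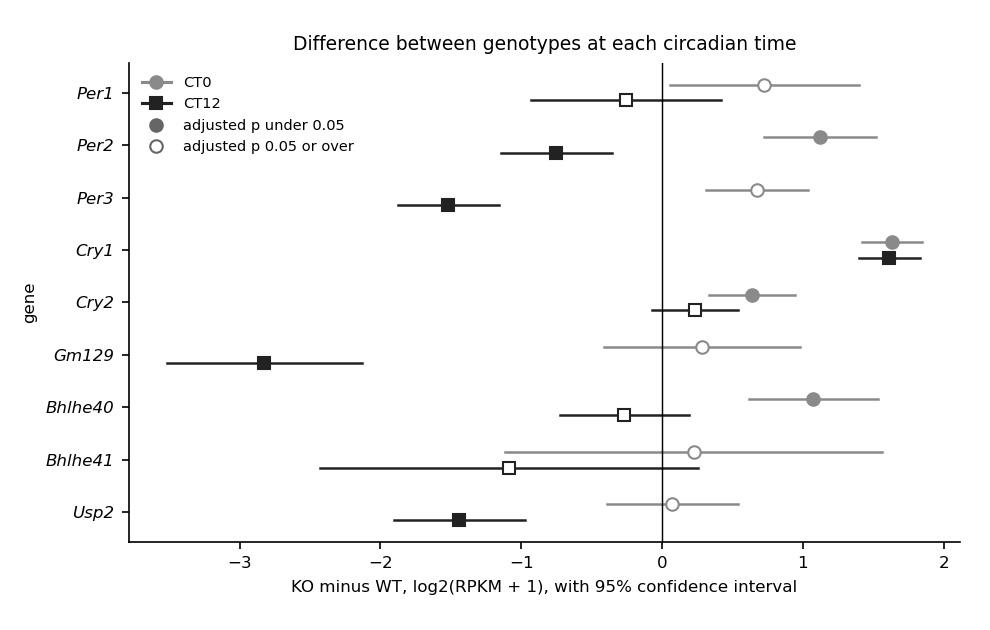
Difference between KO and WT (horizontal axis, log2(RPKM + 1), with 95% confidence interval) for each member (vertical axis), circles for CT0 and squares for CT12. Filled symbols have an adjusted p under 0.05. Per2 is filled on both sides of 0, at 1.12 and -0.75, and Cry1 is filled at 1.64 and 1.62.

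The order of the members by RPKM, which is per length, changed with genotype. In WT at CT12 the mean ± SD (n = 3) was 42.1 ± 3.57 RPKM for Bhlhe40, 17 ± 3.71 for Gm129, 14.4 ± 1.67 for Usp2 and 9.92 ± 0.91 for Per2. Per1 (7.73 ± 1.13), Per3 (7.0 ± 1.95) and Cry2 (6.57 ± 0.82) followed with overlapping livers, then Cry1 (4.73 ± 0.28) and Bhlhe41 (2.39 ± 1.98). Gm129 and Usp2 overlapped too, with the highest Usp2 liver at 16.4 and the lowest Gm129 liver at 14.5. So did Per2 and Per3, with the highest Per3 liver at 9.22 and the lowest Per2 liver at 8.95. In KO at CT12 Bhlhe40 again led with 35.1 ± 6.52 RPKM, and Cry1 came next with 16.6 ± 0.96. Cry2 (7.91 ± 0.85), Per1 (6.36 ± 1.45), Per2 (5.56 ± 1.21) and Usp2 (4.69 ± 0.67) overlapped with their neighbours in the order. Gm129 (1.80 ± 1.55), Per3 (1.75 ± 0.17) and Bhlhe41 (0.39 ± 0.52) were lowest. The level of a gene depends on the row taken. In WT at CT12 Gm129 measured 7.25 ± 0.96 RPKM on its row of 1939 bases and Usp2 8.49 ± 1.07 on its row of 3865 bases.

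Of the 26 member rows, 24 passed the filter. Rows with a change in WT lay below the line of equal change in the plot of both genotypes, and rows of 1 gene stayed near each other. The 5 Per1 rows changed by 2.20 to 2.48 in WT and 1.5 to 1.54 in KO, and the 5 Usp2 rows by 2.93 to 3.44 and 1.45 to 1.93. The 6 Gm129 rows changed by 2.89 to 4.01 in WT and 0.62 to 1.03 in KO.

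**Figure D5:**
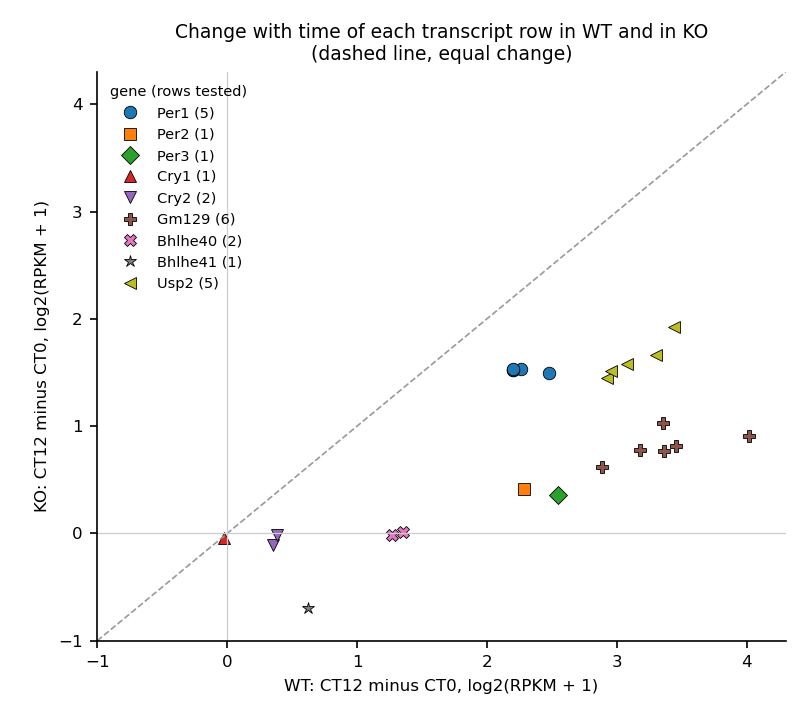
Change from CT0 to CT12 of each tested transcript row on the log2(RPKM + 1) scale, in WT (horizontal axis) and in KO (vertical axis), with the line of equal change dashed. Symbols mark the 9 members, with the number of rows in the legend. Per1 and Usp2 rows lie highest, between 1.45 and 1.93 in KO, and Cry1, Cry2 and Bhlhe40 rows lie near 0 in KO.

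Genes of the same pathway gave a background for the members. All 3 activator genes tested (Arntl, Clock and Npas2, the latter encoding a partner of BMAL1 related to CLOCK) were higher in KO at CT12, and all 3 interactions were positive. Over all tested genes, 6.97% were higher and 3.49% lower in KO at CT12, and interactions were positive for 1.07% and negative for 0.417%. Clock was 6.67 ± 1.84 RPKM in WT and 14 ± 0.38 in KO at CT12 (1.0, SE 0.15, adjusted p = 0.00094). Of 4 genes tested, 3 of them PAR bZIP genes and the other Nfil3, whose products bind D-boxes, 2 had lower values in KO at CT12 and negative interactions. They were Dbp (-2.00 at CT12, adjusted p = 0.00049) and Tef (-0.94, adjusted p = 0.00015).

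Of 5 other E-box targets tested, 4 rose with time in WT, none was called with time in KO by limma (2 at an unadjusted p under 0.05), and 3 were lower in KO at CT12. These 3 were Nampt, the rate-limiting enzyme of NAD salvage (-1.42, adjusted p = 6.8e-06), Por, the electron donor of cytochrome P450 enzymes (-1.85, adjusted p = 0.00013), and the cell cycle kinase gene Wee1 (-1.24, adjusted p = 0.0013). Their interactions all passed, at -1.56, -1.49 and -2.00. Genes for proteins that act on PER and CRY were listed too. Of 12 kinase, ubiquitin ligase and deubiquitinase genes, Csnk1d was higher (0.35, adjusted p = 0.025) and Prkaa2 lower (-0.55, adjusted p = 0.015) in KO at CT12. Prkaa2 rose with time in WT (0.58, adjusted p = 0.012), and no interaction was called by limma, with 2 at an unadjusted p under 0.05. Of 14 partners of the repressor complex, Chd4 was higher in KO at CT12 (0.44, adjusted p = 0.025) and rose with time in KO (0.51, adjusted p = 0.035). Another partner rose with time in WT, and no interaction was called, again with 2 at an unadjusted p under 0.05. Over all tested genes, 6.97% were higher and 3.49% lower in KO at CT12, and 3.71% rose with time in WT and 1.10% in KO. Single calls among 12 or 14 genes are therefore no result about these lists. Of 6 genes for inputs to Per transcription, such as the glucocorticoid receptor gene Nr3c1, none was called in any comparison, with 1 at an unadjusted p under 0.05 at CT0 and 1 at CT12 between genotypes and 0 in the others.

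For each member the 3 tested genes with the most similar pattern were found by the root mean square (RMS) difference of log2(RPKM + 1) over the 12 livers, each gene centred on its mean. Per2 and Per3 were both nearest to Tef, at RMS 0.217 and 0.297, where their own spread around the mean was 0.851 and 0.951. Wee1 was next for Per3 (0.303), and for Per2 (0.348) it followed Cyp7a1, the rate-limiting enzyme of bile acid synthesis (0.333). Per1 was nearest to Ccrn4l (0.437), which encodes the deadenylase nocturnin, then to Per2 (0.479) and Cyp7a1 (0.480). Gm129 was nearest to Dbp (0.451), Upp2 (0.608) and D0H4S114 (0.692), and Usp2 to Alas1, the first enzyme of heme synthesis (0.456), Dbp (0.477) and Ccrn4l (0.512).

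The genes nearest to Cry1 were Gstm1 (0.242), Gstm6 (0.280) and Srgap3 (0.299), the former pair encoding glutathione S-transferases. Gstm1 averaged 1120 and 1027 RPKM in WT at CT0 and CT12 and 2644 and 2496 in KO. Paralogs of the Gstm family can share reads, so the level of a single one is uncertain. Cry2 was nearest to Psmg1 (0.15), Tmem97 (0.151) and Snx8 (0.154), each within the spread of Cry2 itself (0.297), and Bhlhe40 to Ppp1r3b (0.293), Sds (0.333) and Gm14420 (0.336). For Bhlhe41 even the nearest genes, Csf1 and Gm10509 at 0.624 and Hap1 at 0.637, lay close to its own spread of 0.839.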

How the data were processed

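Total RNA of 12 mouse livers was extracted with Trizol and sequenced from libraries made with a TruSeq RNA kit. The authors deposited RPKM values (reads scaled to transcript length and to sequencing depth) for each Ensembl transcript in each liver. Their processing notes name TopHat2, bedtools 2.19.1 and the mm9 build, without roles, and how reads were divided among transcripts is not given in the sources used here. Groups and replicate numbers came from the sample titles. The members and gene lists were chosen with earlier results of these data known.

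Each symbol was represented by its row of highest mean, and genes whose RPKM averaged 1 or more in any group were tested. Values were analysed as log2(RPKM + 1) in limma 3.58.1 (R 4.3.3, lmFit and eBayes with a trend) with 4 group means over 12 samples, with Benjamini-Hochberg adjustment over the tested genes at a threshold of 0.05. The fit was tested on simulated data. The p-values rest on a spread between livers that is pooled over the 4 groups of 3 and moderated toward a trend over genes.

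Depth was recovered from the lowest nonzero values and GENCODE vM1 lengths, and reads were computed from that depth. Of values of 1 to 20 reads, 95.6% to 96.3% were then whole within 0.05. Among 10141 pairs of nested rows of a gene, 98.4% of values had no more reads on the inner row, so rows share reads. Named genes were all members, the 3 genes most alike to each in pattern, Arntl, and from each list the genes that passed the interaction test or had the 3 largest genotype differences at CT12, of which a part is given. Alternatives were another pseudocount, 2 other filters, quantile normalization, the longest row, all rows, an unmoderated model, a replicate block, only the samples compared, a log2 limit of 1 and leaving out each liver. Python 3.11.15, pandas 2.3.3 and matplotlib 3.10.9 were used.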

Additional observations from a re-analysis of the deposited data

Results flagged for a closer look

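For 5 members the effect of time differed between the genotypes by the interaction test of limma. The interaction was -3.11 for Gm129 (adjusted p = 0.0053), -2.19 for Per3 (adjusted p = 0.00073), -1.87 for Per2 (adjusted p = 0.0037), -1.52 for Usp2 (adjusted p = 0.029) and -1.34 for Bhlhe40 (adjusted p = 0.049), each on the log2(RPKM + 1) scale. Groups of 3 livers are too small for a test of single outlying livers.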

How the results depend on the processing

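Of 45 differences of the members (9 genes in 5 comparisons), 27 kept direction and call under every alternative run. Over 899 values under alternatives, 818 kept both, 56 kept the direction and lost the call, 6 gained a call and 19 changed sign, none of them called on either side. Sign changes were -0.16 for Bhlhe41 and -0.20 for Usp2 at CT0 with a pseudocount of 0.1, -0.02 for Gm129 at CT0 and -0.01 for Bhlhe40 with time in KO on the longest row, and 0.06 for Cry1 with time in WT after quantile normalization. Leaving out 1 liver gave -0.40 to 0.78 for Bhlhe41 and -0.14 to 0.36 for Usp2 at CT0, -0.12 to 0.04 for Cry1 with time in WT and -0.08 to 0.08 for its interaction, and -0.14 to 0.23 for Bhlhe40 and -0.08 to 0.06 for Cry2 with time in KO. The cause of these moves was not tested.

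Between genotypes at CT0, 201 genes and 4 members were called. No filter gave 114 and 2, an unmoderated model 72 and 1, and a fit of the 6 samples compared 107 and 2. A filter of 1 RPKM in every sample gave 117 genes, all transcript rows 457 calls and a log2 limit of 1 left 68 genes. At CT12, 1130 genes and 5 members became 2807 calls over all rows, 270 genes with the limit and 1 member under the filter of every sample, which tests fewer members. For time in WT, 1252 genes and 6 members became 3298 calls, 209 genes and 1 member in the same settings. For time in KO, 262 genes and 2 members became 161 and 1 with no filter, 58 and 1 in the unmoderated model and 26 and 1 in the 6 samples. All rows gave 741 calls, the limit 56 genes, the filter of every sample 0 members and a pseudocount of 0.1 gave 1 member. For the interaction, 161 genes and 5 members became 97 and 3 in the unmoderated model, 426 calls over all rows, 89 genes with the limit, 3 members with no filter and 1 under the filter of every sample. The 15 member rows with an interaction became 6 with a pseudocount of 0.1, and 13 of the 27 genes most alike in pattern were named again.

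Leaving out 1 liver gave 76 to 208 genes and 1 to 5 members at CT0, 728 to 1279 genes at CT12, 660 to 1394 genes for time in WT, 65 to 260 genes and 1 to 2 members for time in KO, and 87 to 146 genes and 3 to 5 members for the interaction. At CT0, 1 member remained called without WT CT0 replicate 2, and 2 without WT CT0 replicate 1 or KO CT0 replicate 1. All groups carry the same replicate numbers. Deviations of same-numbered livers correlated at -0.0665 to 0.139 (2 of 18 pairs over 0.1). Those of livers with different numbers correlated at -0.188 to 0.114 (2 of 36 pairs over 0.1). Whether same-numbered livers shared a batch cannot be told from these values. With a replicate block, 3 members were called at CT0 (Cry2 at adjusted p = 0.064 was not), 5 at CT12, 6 for time in WT, 2 for time in KO and 5 for the interaction. RPKM of the lowest members rests on few reads, and changes there were not detectable at this depth unless large.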
